A study of Mus musculus with 12 samples.

Results

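The genes described here are 42 components of DNA replication and of the step from G1 into S phase, the part of the cell cycle in which the genome is copied. They were listed by name (the MCM2-7 helicase, licensing factors, clamp and clamp loader, polymerases, deoxynucleotide enzymes, G1/S cyclins, E2F1 and chromatin replication factors), with earlier results of these data known. All 42 were found among the 55401 gene identifiers of the series. All 42 also passed the filter on low counts, which left 16135 genes, and the lowest count of a member in any library was 79 (E2f1). RNA was sequenced from 12 primary cultures of the subventricular zone, the neurogenic niche along the lateral ventricle, of CD1 mice. Postnatal NSC (4 libraries) were neural stem cells of pups aged 0 to 2 days, and Adult NSC (4 libraries) were neural stem cells of mice aged 2 months. Both were grown as neurospheres, floating clusters of stem and progenitor cells, for 6 to 7 days without serum in medium with B27, EGF at 20 ng/mL, FGF at 10 ng/mL and heparin at 2 ug/mL. Postnatal OPC (4 libraries) were oligodendrocyte precursor cells made from primary neurospheres of pups aged 0 to 2 days, dissociated and kept as a monolayer for 2 days with B27, PDGF-AA at 10 ng/mL and FGF at the same concentration. The labels give no treatment and no genetic change in any group, and 4 independent litters as the source of the replicates. The growth factors, the attachment of the cells and the time in culture differ between OPC and NSC together, so they cannot be told apart in that comparison.

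Before S phase, CDC6 and CDT1 load the MCM2-7 helicase onto replication origins, and geminin (Gmnn) blocks CDT1 once replication has begun. CDC45 and the GINS complex then turn the loaded MCM ring into a working helicase, DNA polymerase alpha and primase lay down primers, and PCNA, the sliding clamp loaded by replication factor C, tethers the polymerases. D-type cyclins with CDK4 or CDK6 and E-type cyclins with CDK2 phosphorylate the retinoblastoma protein, which frees E2F factors to transcribe many of these genes, so the set is widely used as a readout of cycling. In neurospheres EGF and FGF keep progenitors dividing, and PDGF-AA is the classical mitogen of oligodendrocyte precursors.

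Library totals ranged from 38928989 to 54801726 counts in Postnatal NSC, from 16756231 to 20064043 in Adult NSC and from 17226501 to 23651396 in Postnatal OPC. The labelled cell types were checked against defining markers. Pdgfra, the PDGF receptor of oligodendrocyte precursors, read 1433 ± 710.2 CPM (normalised counts scaled to library size and composition; mean ± SD, n = 4) in Postnatal OPC, 229.9 ± 59.6 in Postnatal NSC and 12.2 ± 2.98 in Adult NSC. Nes, an intermediate filament of neural progenitors, read 745 ± 194, 1534 ± 134 and 2071 ± 83.4 CPM in the same order, but the 7 neural stem cell markers did not all follow it: 2 were higher and 4 lower in OPC against Postnatal NSC, and 3 higher and 3 lower in OPC against Adult NSC. Among the 7 oligodendrocyte precursor markers, 4 were higher and 3 did not pass in OPC against Postnatal NSC. All 7 were higher in OPC against Adult NSC. Their mean log2 CPM was 9.44 to 10.51 across OPC libraries and 8.47 to 9.04 across those of Postnatal NSC. Of 5 microglia markers, Cx3cr1 had no count in any library and 1 marker passed the filter on low counts. That marker read 1.06 to 1.97 CPM in Postnatal OPC, 0 to 0.47 in Postnatal NSC and 0.36 to 0.68 in Adult NSC. It was higher in OPC in both comparisons with NSC. In bulk RNA, fewer cells in cycle and less of a transcript per cell cannot be told apart.

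The members moved together, and a pair of libraries stood apart from the other 3 of their groups. In Postnatal NSC 3 and Postnatal OPC 2 every one of the 42 members was at its lowest level of the 4 libraries of its group. In all genes tested, 35.8% were lowest in Postnatal NSC 3 and 36.7% in Postnatal OPC 2. The summed level of the members was 1909 CPM in Postnatal NSC 3, against 5267, 3771 and 5894 CPM in Postnatal NSC 1, 2 and 4. It was 1469.5 CPM in Postnatal OPC 2, against 4868, 5656 and 5857 CPM in Postnatal OPC 1, 3 and 4. Adult NSC 1 to 4 lay close together at 7607, 7552, 8120.0 and 7658 CPM. The median member was 2.29-fold below the mean of the other 3 libraries (on the log2 scale) in Postnatal NSC 3 and 3.78-fold below it in Postnatal OPC 2. The median SD of log2 CPM within a group was 0.64 for the members and 0.28 for all genes in Postnatal NSC, 0.97 and 0.25 in Postnatal OPC, and 0.07 and 0.11 in Adult NSC. The members' SD was above that of the typical gene in both postnatal groups and below it in Adult NSC. Adult NSC 3 held the highest value of its group for 39 of the 42 members, by a median of only 0.13 on the log2 scale.

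**Figure D1:**
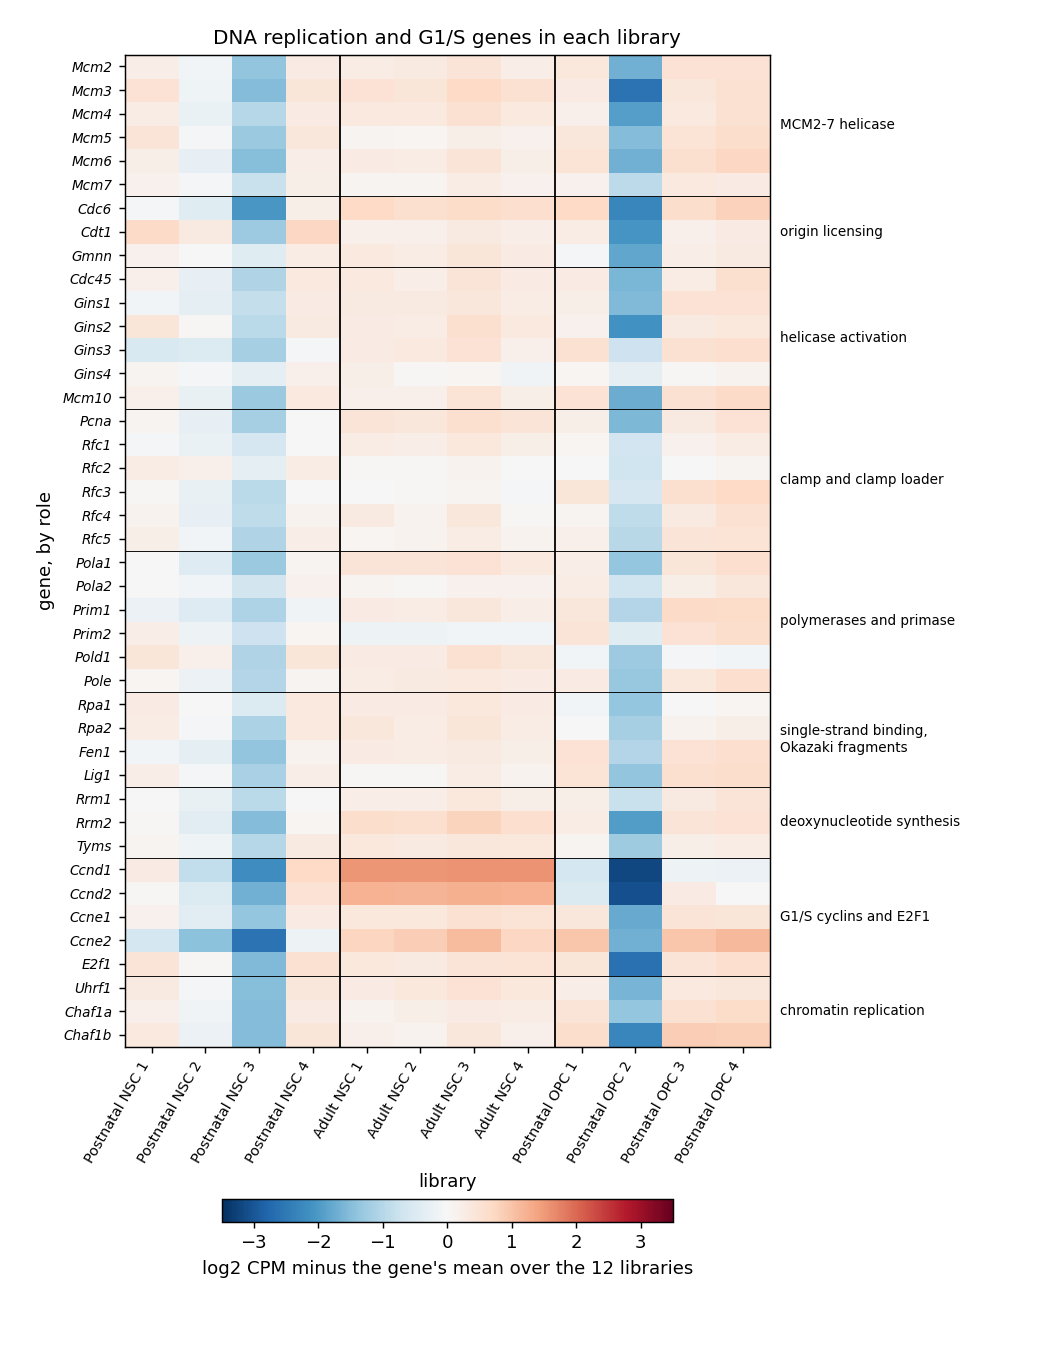
Each row is a member gene and each column a library, with colour for log2 CPM minus the gene's own mean over the 12 libraries (blue lower, red higher). The columns of Postnatal NSC 3 and Postnatal OPC 2 are blue in all 42 rows, and Ccnd1 and Ccnd2 are red in all 4 Adult NSC columns.

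The size of the drop in these 2 libraries differed between the genes' roles. G1/S cyclins and E2F1 were lowest, with a median 3.56-fold below the other 3 libraries in Postnatal NSC 3 and 7.22-fold in Postnatal OPC 2. The licensing factors Cdc6, Cdt1 and Gmnn had medians of 3.54-fold and 4.94-fold below, but Gmnn alone was 1.47-fold and 3.9-fold below. The medians were 2.9-fold and 4.59-fold for MCM2-7, and 3.23-fold and 3.86-fold for the chromatin factors Uhrf1, Chaf1a and Chaf1b. Smaller medians were seen for the clamp and clamp loader (1.83-fold and 2.26-fold) and for polymerases and primase (1.89-fold and 2.64-fold). E2f1, the transcription factor of the set, was 8.33-fold below in Postnatal OPC 2, more than any other member there, and Chaf1b, a subunit of the histone chaperone CAF-1, was 8.3-fold below. In Postnatal NSC 3 the largest drop was in Ccnd1 (4.57-fold), followed by Cdc6 (3.82-fold). Gins4, a GINS subunit, moved least in both libraries, at 1.32-fold and 1.34-fold below, and the clamp loader subunits Rfc1 and Rfc2 were between 1.42-fold and 1.79-fold below. Each value describes 1 library against 3 and has no test.

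**Figure D2:**
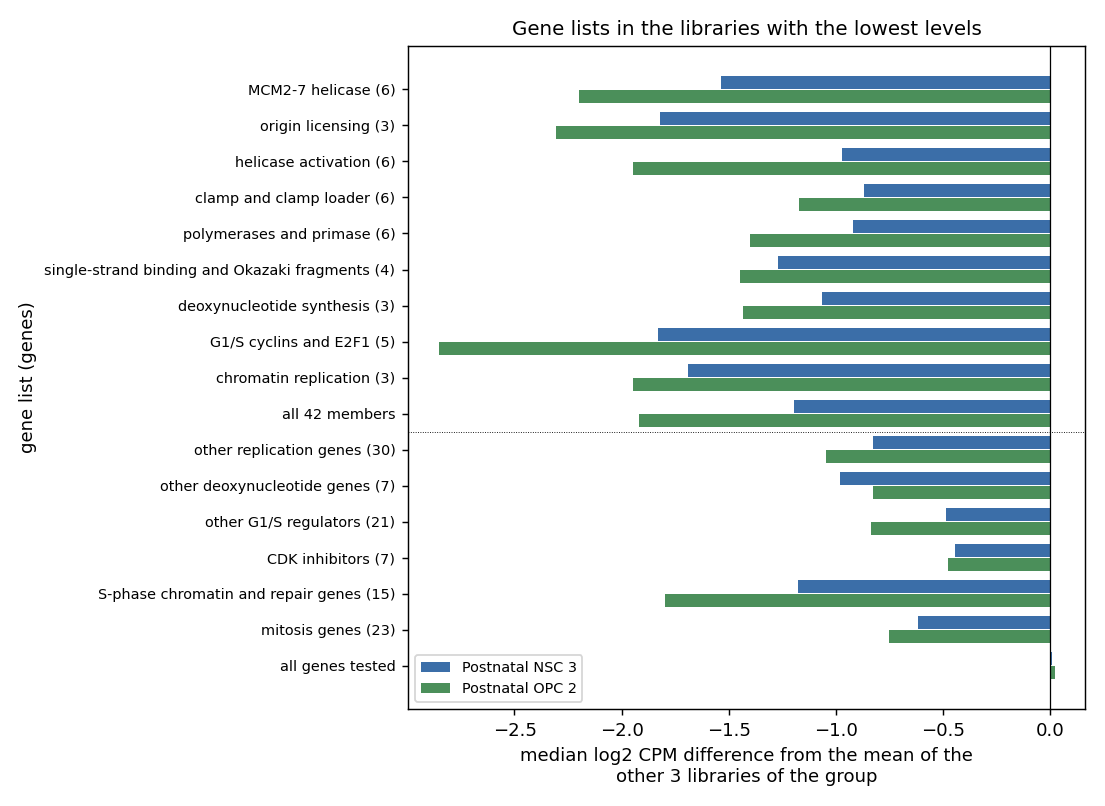
Bars show, for each gene list, the median difference in log2 CPM between the named library and the mean of the other 3 libraries of its group. Bars left of 0 are lower levels; lists above the dotted line are roles of the 42 members, and the bars of all 16135 genes tested lie near 0.

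Most genes outside the set that act in the same process were low in the same libraries, but not all of them. S-phase chromatin and repair genes, a separate list of 15 that were all lowest of their group in both libraries, were a median 2.26-fold below in Postnatal NSC 3 and 3.47-fold below in Postnatal OPC 2. Mitosis genes (23 genes, among them Mki67 and Kif11, again all lowest) were 1.54-fold and 1.69-fold below, a smaller median than that of the members. Of 30 other replication genes 25 were lowest in each of the 2 libraries, and of 21 other G1/S regulators 13 were lowest in Postnatal NSC 3 and 15 in Postnatal OPC 2. Orc3, a subunit of the origin recognition complex named here after its values were seen, was the highest of its group in both, at 48.8 and 56.6 CPM. Immediate early genes, which respond within minutes to stimuli, and cell type markers moved with these libraries. In Postnatal NSC 3 all 10 immediate early genes and all 5 oligodendrocyte markers were the highest of the group. The summed level of oligodendrocyte markers was 900.3 CPM there against 327 to 590.0 CPM in the other 3, and that of immediate early genes 12618 against 4809.5 to 6289 CPM. The median gene of astrocyte markers was 2.1-fold, and of neuroblast and neuron markers 1.88-fold, above the other 3 in that library. However, 2 of 4 astrocyte markers were highest there, and their sum of 1578 CPM was below the 1629 CPM of Postnatal NSC 2. Of the 6 neuroblast and neuron markers, 4 were highest and 1 lowest in Postnatal NSC 3. Mog, a late myelin gene among oligodendrocyte markers, was at or near 0 in all 12 libraries. In Postnatal OPC 2, 6 of 7 oligodendrocyte precursor markers were highest and 6 of 7 neural stem cell markers lowest of the group. The sum of oligodendrocyte precursor markers was 14205 CPM there against 9572 to 9599.9 CPM, and that of neural stem cell markers 5237 against 7694 to 8742 CPM. The sum of oligodendrocyte markers was 531 against 258 to 319 CPM, and that of neuroblast and neuron markers 239 against 87 to 138 CPM. Of the 6 neuroblast and neuron markers, however, 2 were highest and 1 lowest there, and their median gene was 1.29-fold above. The sum of astrocyte markers was 406 against 481 to 781 CPM, with 2 of 4 highest and 1 lowest. Gpr17, a receptor of committed oligodendrocyte precursors, read 2776 CPM in Postnatal OPC 2 and 319.8 to 449.5 CPM in the other 3. Immediate early genes went in opposite directions in the 2 libraries: 8 of 10 were the lowest of the group in Postnatal OPC 2, with a sum of 96.6 against 273 to 275 CPM. The part of these features in the low level of the members was not tested.

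After the group means were removed, each member was correlated with the mean of the other 41, and Pearson's r had a median of 0.991 over the 12 libraries (lowest 0.897, Gins4; highest 0.999). With the group means kept, the median was 0.964 and the lowest 0.691, for Prim2, the large primase subunit. Points in these correlations share libraries, and Postnatal NSC 3 and Postnatal OPC 2 lie far from the rest, so the values are a description of these libraries.

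Among the members, the largest log2 fold changes of Adult over Postnatal NSC were those of the cyclin genes Ccne2, Ccnd1 and Ccnd2. These genes rose, together with Gins3 and Rfc1, so that 5 of the 42 members passed the test and none fell. Of all genes tested, 25.2% were higher and 27.9% lower in this comparison, so the share of members called was below the background. The test was edgeR's quasi-likelihood test on all 12 libraries with Benjamini-Hochberg adjustment over the 16135 genes, called at an adjusted p under 0.05. For the 0 members lower in Adult NSC, 0 also had an unadjusted p under 0.05, and DESeq2 called 0. The median log2 fold change of the members was 0.43 (all genes -0.03), and it was positive for 39 of 42. In 16 members every Adult NSC library lay above every Postnatal NSC library, which was so for 27.2% of all genes tested. Other lists moved with this contrast: the summed level of immediate early genes was 554 to 621 CPM in Adult NSC and 4809.5 to 12618 CPM in Postnatal NSC (10 of 10 lower in Adult NSC), that of oligodendrocyte markers 140.2 to 177 and 327 to 900.3 CPM (4 of 4 tested lower), and that of neuroblast and neuron markers 23.1 to 32.3 and 54.6 to 145 CPM (5 of 6 lower). The mean log2 CPM of astrocyte markers ran from 4.38 to 4.64 across Adult NSC libraries and from 5.26 to 7.32 across those of Postnatal NSC (3 of 4 lower), and that of oligodendrocyte precursor markers 6.51 to 6.85 and 8.47 to 9.04 (4 of 7 lower). For neural stem cell markers it overlapped, at 9.22 to 9.30 and 9.16 to 9.36 (2 of 7 higher, 1 lower). The summed levels of these markers did not overlap, at 9618 to 10256 CPM in Adult NSC and 7460 to 8696 CPM in Postnatal NSC. Those of astrocyte markers did, at 979 to 1081 and 803 to 1629 CPM, so the reading depends on the measure. The part of these lists in the members' differences was not tested.

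Ccnd1 (ENSMUSG00000070348.5, chr7:144929931-144939925 on the minus strand, GRCm38) encodes cyclin D1, the mitogen-responsive partner of CDK4 and CDK6. It read 922, 417, 170.0 and 1225 CPM in Postnatal NSC 1 to 4, 2221, 2212, 2276 and 2257 CPM in Adult NSC 1 to 4, and 501, 83.9, 669 and 667 CPM in Postnatal OPC 1 to 4. All Adult NSC libraries lay above all others, and Postnatal OPC 2 was lowest. The log2 fold change of Adult over Postnatal NSC was 1.71 (SE 0.61, adjusted p = 0.0312). Ccnd2 (ENSMUSG00000000184.12, chr6:127125162-127152193 on the minus strand) encodes cyclin D2, a D-type cyclin of neural progenitors. It read 609, 423, 184 and 841 CPM in Postnatal NSC 1 to 4, 1363, 1348, 1394 and 1374 CPM in Adult NSC 1 to 4, and 414, 70.2, 713 and 599 CPM in Postnatal OPC 1 to 4. Its order of groups matched that of Ccnd1, with no overlap between Adult NSC and either postnatal group. The log2 fold change of Adult over Postnatal NSC was 1.41 (SE 0.56, adjusted p = 0.0482). The spread among Adult NSC libraries was small for both genes, with means of 2242 ± 30.2 and 1369.8 ± 19.2 CPM (SD, n = 4), against 683 ± 478 and 514 ± 279 CPM in Postnatal NSC. Of the exon bases, 23.4% of Ccnd1, 3.95% of Ccnd2 and 17.4% of Ccne2 overlap another gene on the opposite strand, so these counts are uncertain if strand was not used in counting.

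Ccne2 (ENSMUSG00000028212.16, chr4:11191351-11204779 on the plus strand) encodes cyclin E2, which activates CDK2 at the entry into S phase. It read 13.6, 7.79, 3.48 and 18.7 CPM in Postnatal NSC 1 to 4, 35.1, 37.9, 45.1 and 34.7 CPM in Adult NSC 1 to 4, and 40.8, 6.56, 41.4 and 46 CPM in Postnatal OPC 1 to 4. Adult NSC and Postnatal OPC 1, 3 and 4 lay above every Postnatal NSC library, while Postnatal OPC 2 lay within the Postnatal NSC range. The log2 fold change of Adult over Postnatal NSC, 1.81 (SE 0.54, adjusted p = 0.0143), was the largest among the members in this comparison. Ccne1 (ENSMUSG00000002068.16, chr7:38097984-38107534 on the minus strand), the gene of cyclin E1, read 28.3, 19.5, 9.94 and 30.9 CPM in Postnatal NSC 1 to 4, 33.1, 32.9, 37 and 35.5 CPM in Adult NSC 1 to 4, and 33.6, 7.42, 34.9 and 34.2 CPM in Postnatal OPC 1 to 4. Its Adult NSC libraries also lay above all Postnatal NSC libraries, by less, and the log2 fold change of 0.64 (SE 0.42, adjusted p = 0.209) did not pass. E2f1 (ENSMUSG00000027490.17, chr2:154559407-154569892 on the minus strand), a transcription factor that activates S-phase genes, read 26.6, 20.2, 6.76 and 28.3 CPM in Postnatal NSC 1 to 4, 25.5, 24.5, 27 and 27.4 CPM in Adult NSC 1 to 4, and 26.1, 3.22, 26.9 and 29.2 CPM in Postnatal OPC 1 to 4. Outside the 2 low libraries it stayed between 20.2 and 29.2 CPM, and the Adult over Postnatal NSC value of 0.35 (SE 0.53, adjusted p = 0.592) did not pass.

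**Figure D3:**
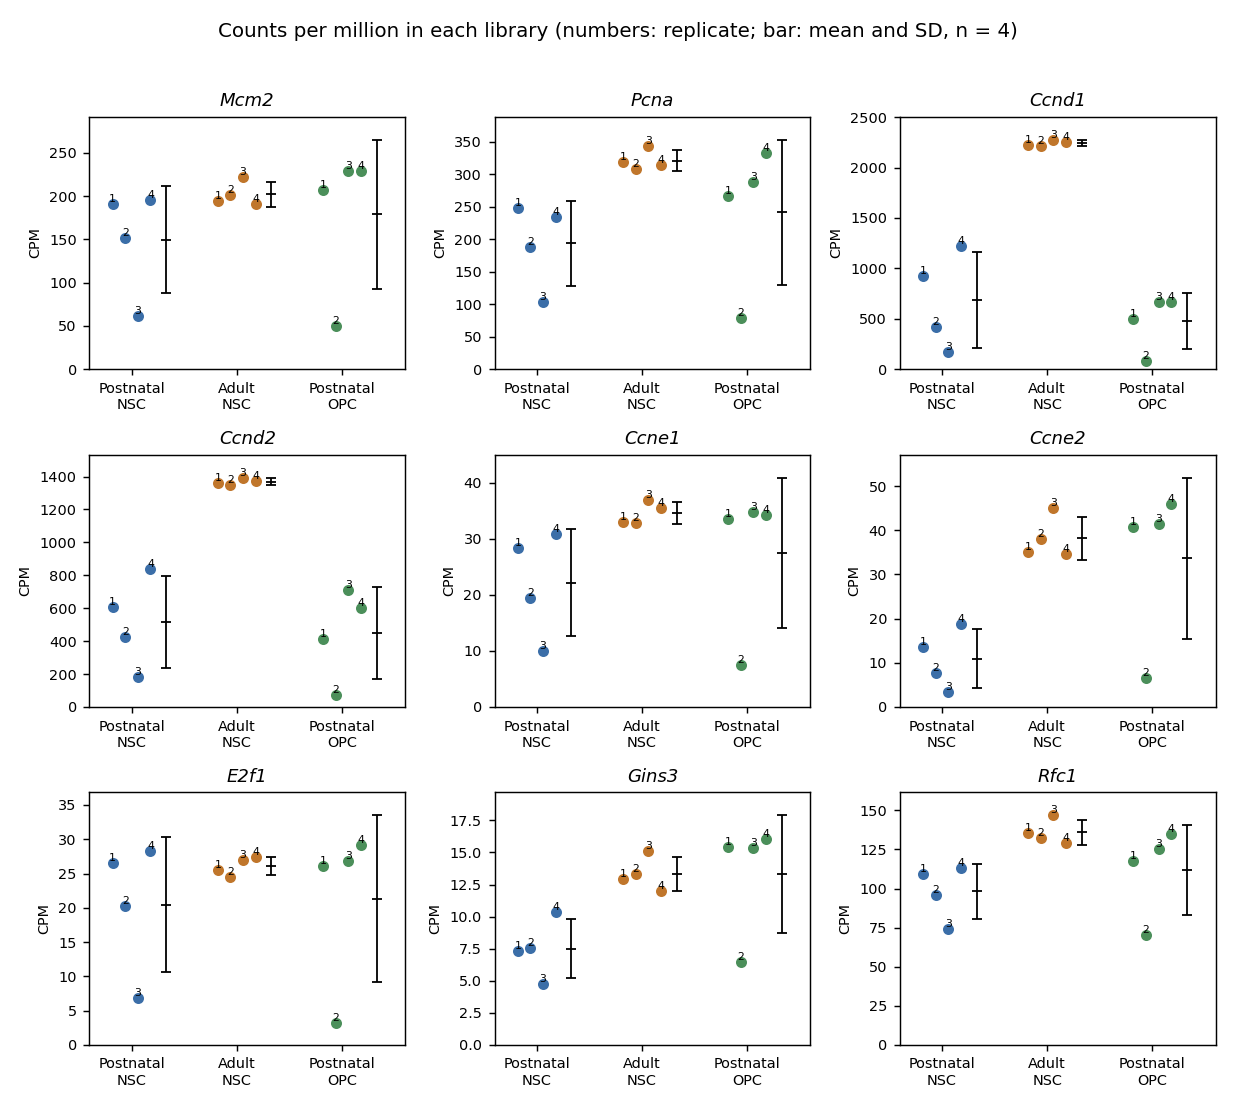
Points are CPM in each library with the replicate number, by group, and the bar beside them gives the mean and SD (n = 4). Adult NSC lie above both postnatal groups for Ccnd1 and Ccnd2, Postnatal NSC lie low for Ccne2 and Gins3, and replicate 3 of Postnatal NSC and replicate 2 of Postnatal OPC are the lowest of their groups in every panel.

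Among the fork components, Gins3 (ENSMUSG00000031669.10, chr8:95633453-95645060 on the plus strand), a subunit of the GINS complex, read 7.33, 7.58, 4.73 and 10.4 CPM in Postnatal NSC 1 to 4, 12.9, 13.4, 15.1 and 12 CPM in Adult NSC 1 to 4, and 15.4, 6.48, 15.3 and 16 CPM in Postnatal OPC 1 to 4. Postnatal NSC were lower than Adult NSC without overlap, and the log2 fold change was 0.83 (SE 0.28, adjusted p = 0.0248). Rfc1 (ENSMUSG00000029191.16, chr5:65261850-65335670 on the minus strand), the large subunit of the clamp loader, read 109, 95.9, 74.4 and 113 CPM in Postnatal NSC 1 to 4, 135, 132, 147 and 129 CPM in Adult NSC 1 to 4, and 117, 70.3, 125 and 135 CPM in Postnatal OPC 1 to 4. Every Adult NSC library was above every Postnatal NSC library, with a log2 fold change of 0.47 (SE 0.18, adjusted p = 0.044). Pcna (ENSMUSG00000027342.14, chr2:132249162-132253314 on the minus strand), the sliding clamp, read 248, 188, 104 and 235 CPM in Postnatal NSC 1 to 4, 319, 307, 343 and 314 CPM in Adult NSC 1 to 4, and 266, 78.3, 288 and 332 CPM in Postnatal OPC 1 to 4. Adult NSC did not overlap Postnatal NSC, yet the log2 fold change of 0.73 (SE 0.36, adjusted p = 0.105) did not pass. Of 50-base stretches sampled along the longest Pcna transcript, 32.0% were also found in transcripts of other genes, most often the pseudogene Pcna-ps2. The Pcna counts are uncertain to that extent. Mcm2 (ENSMUSG00000002870.8, chr6:88883474-88898780 on the minus strand), a helicase subunit, read 191, 152, 61.7 and 196 CPM in Postnatal NSC 1 to 4, 195, 201, 223 and 191 CPM in Adult NSC 1 to 4, and 207, 50.3, 229 and 229 CPM in Postnatal OPC 1 to 4. Its groups overlapped, and Adult over Postnatal NSC was 0.43 (SE 0.42, adjusted p = 0.397). The 6 MCM2-7 genes ranged from 0.11 (Mcm5) to 0.54 (Mcm3) in log2 fold change, with 0 passing.

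Group means show the size of the spread for the other members. Mcm5, a helicase subunit, read 153 ± 67.1 CPM in Postnatal NSC, 166 ± 6.99 in Adult NSC and 174 ± 81.8 in Postnatal OPC (mean ± SD, n = 4). Mcm6, another subunit of the ring, read 152 ± 66.4 CPM in Postnatal NSC, 213 ± 15 in Adult NSC and 209 ± 105 in Postnatal OPC. For both subunits the 3 group means differed by less than the SD within either postnatal group. Cdc6, which loads the helicase, read 18.4 ± 9.27 CPM in Postnatal NSC, 36.4 ± 1.66 in Adult NSC and 30.2 ± 17 in Postnatal OPC. Cdt1, its partner in loading, read 37.9 ± 17.6 CPM in Postnatal NSC, 36.3 ± 1.74 in Adult NSC and 29.6 ± 14.8 in Postnatal OPC, and was the licensing factor with the lowest OPC mean relative to Postnatal NSC. Of the polymerases, Pola1 read 44.2 ± 16.8 CPM in Postnatal NSC, 74.6 ± 3.15 in Adult NSC and 60.7 ± 27.2 in Postnatal OPC. Pold1 read 67.8 ± 25.5 CPM in Postnatal NSC, 82.4 ± 6.81 in Adult NSC and 51.5 ± 17.1 in Postnatal OPC, and had its lowest mean in OPC where Pola1 had its lowest in Postnatal NSC. The primase subunits differed in their order: Prim1 read 29.8 ± 8.04 CPM in Postnatal NSC, 49.1 ± 2.37 in Adult NSC and 49.4 ± 20.6 in Postnatal OPC, and Prim2 35.3 ± 9.28 CPM in Postnatal NSC, 35 ± 1.01 in Adult NSC and 48.4 ± 13.4 in Postnatal OPC. Uhrf1, which guides DNA methylation to newly copied DNA, read 178 ± 80.4 CPM in Postnatal NSC, 240.4 ± 14.7 in Adult NSC and 188 ± 86.1 in Postnatal OPC. Chaf1b, which deposits histones behind the fork, read 30.4 ± 14.4 CPM in Postnatal NSC, 37 ± 3.25 in Adult NSC and 42.5 ± 24.4 in Postnatal OPC. In each of these genes the SD in Postnatal OPC included the 1 low library.

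The remaining members did not pass between Adult and Postnatal NSC. Among the enzymes that supply deoxynucleotides, Rrm2, the S-phase subunit of ribonucleotide reductase, read 329 ± 22 CPM in Adult NSC and 169 ± 68.6 CPM in Postnatal NSC (log2 fold change 0.96, SE 0.44, adjusted p = 0.081), Rrm1 gave 0.51 and Tyms, thymidylate synthase, 0.47. Of the licensing factors, Cdc6 gave 0.98 (SE 0.53, adjusted p = 0.136), Gmnn 0.31 and Cdt1 -0.06. Polymerases and primase ranged from -0.01 (Prim2) to 0.76 (Pola1), single-strand binding and Okazaki fragment genes from 0.20 (Lig1, DNA ligase I) to 0.60 (Fen1, the flap endonuclease), and the 3 chromatin factors from 0.28 (Chaf1b) to 0.43 (Uhrf1). Of helicase activation genes other than Gins3, Gins4 gave 0.07 and Gins1 0.50, the ends of their range, and of the clamp loader other than Rfc1, Rfc2 gave -0.06 and Rfc4 0.41. Exons of Fen1, Gins2 and Chaf1a overlap another gene on the opposite strand over 78.8%, 67.3% and 52.5% of their length. Of the 50-base stretches of the longest transcript, 26.1% for Mcm7 and 18.8% for Uhrf1 were found in transcripts of other genes. The counts of these 5 genes are uncertain in the same way.

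Leaving out single libraries changed which members passed between Adult and Postnatal NSC. The number higher was 1 without Postnatal NSC 2, Postnatal NSC 3 or Adult NSC 3, 2 without Postnatal NSC 1 or Adult NSC 1, 2 or 4, 3 without Postnatal OPC 1, 4 or 5 without Postnatal NSC 4 or Postnatal OPC 3 or 4, and 11 without Postnatal OPC 2, a library outside the comparison that enters the shared estimate of spread. Ccne2 passed at 0.05 in all 20 alternative fits, but not at a threshold of 0.01, with a log2 fold change from 1.51 to 2.16 and an adjusted p of at most 0.0476. Ccnd1, Ccnd2, Gins3 and Rfc1 each missed the threshold in 4 to 11 of the 20, with adjusted p up to 0.116.

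Between Postnatal OPC and Postnatal NSC, 2 members passed, both higher in OPC, Ccne2 and Gins3. With all 12 libraries, 22.4% of all genes tested were higher and 22.7% lower, so the members' share was below the background here as well. Adult NSC, outside this comparison, enter the shared estimate of spread. With only the groups compared in the fit, 0 members passed, while 5699 of 16590 genes tested did. Ccne2 had a log2 fold change of 1.63 (SE 0.54, adjusted p = 0.0268), and Gins3 of 0.83 (SE 0.28, adjusted p = 0.0289). For both genes 3 of 4 OPC libraries lay above every Postnatal NSC library and Postnatal OPC 2 did not. For the 0 members lower in OPC, 0 had an unadjusted p under 0.05 and DESeq2 called 0. The median log2 fold change of the members was 0.24 (all genes -0.01), positive for 32 of 42. Values that did not pass ran from -0.51 (Ccnd1) to 0.73 (Prim1, the catalytic primase subunit; adjusted p = 0.0675). By role, the 6 MCM2-7 genes lay between 0.05 (Mcm3) and 0.46 (Mcm6), the clamp and clamp loader between -0.23 (Rfc2) and 0.59 (Rfc3), and deoxynucleotide enzymes between 0.05 (Tyms) and 0.40 (Rrm2). Helicase activation genes other than Gins3 lay between -0.10 (Gins2) and 0.39 (Mcm10), single-strand binding and Okazaki fragment genes between -0.31 (Rpa1) and 0.60 (Fen1), and the chromatin factors between 0.08 (Uhrf1) and 0.48 (Chaf1b). Of the licensing factors, Cdc6 gave 0.71, Gmnn -0.14 and Cdt1 -0.36. Pcna gave 0.31 (SE 0.36, adjusted p = 0.497), Mcm2 0.25, Ccne1 0.31, E2f1 0.06 and Ccnd2 -0.20. The number higher was 0 without Postnatal NSC 2 or Postnatal OPC 1, 3 or 4, 1 without Postnatal NSC 1 or Postnatal NSC 3, and 13 without Postnatal OPC 2, and the number lower was 1 (Pold1) without Postnatal NSC 3. The lists of immediate early genes and oligodendrocyte precursor markers moved with this contrast too, at 96.6 to 275 against 4809.5 to 12618 CPM and 9572 to 14205 against 5788 to 6186 CPM, and their part in the members' values was not tested.

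Between Postnatal OPC and Adult NSC, the D-type cyclins fell and no member rose. Ccnd1 had a log2 fold change of -2.22 (SE 0.62, adjusted p = 0.00968), and Ccnd2 of -1.61 (SE 0.56, adjusted p = 0.0295). All 4 OPC libraries were below all 4 Adult NSC libraries for both. Of all genes tested, 26.3% were higher and 24.7% lower in OPC. For the 0 members higher, 0 had an unadjusted p under 0.05 and DESeq2 called 0. The median log2 fold change was -0.20 (all genes 0.01) and 8 of 42 were positive. Without overlap of the libraries, 7 members were lower in OPC, a pattern seen in 28.7% of all genes tested: Ccnd1, Ccnd2, Rrm2, Tyms, Pold1, the catalytic subunit of polymerase delta (-0.68, SE 0.31, adjusted p = 0.0832), and Rpa1 and Rpa2, subunits of the single-strand binding protein RPA (-0.56 and -0.45). By role, the MCM2-7 genes lay between -0.49 (Mcm3) and 0.07 (Mcm5), the clamp and clamp loader between -0.41 (Pcna) and 0.34 (Rfc3), helicase activation genes between -0.42 (Gins2) and -0.01 (Gins3), and polymerases and primase between -0.68 (Pold1) and 0.47 (Prim2). The licensing factors lay between -0.45 (Gmnn) and -0.27 (Cdc6), the 3 chromatin factors between -0.36 (Uhrf1) and 0.20 (Chaf1b), and E2f1 was -0.29. The E-type cyclins gave -0.33 (Ccne1) and -0.18 (Ccne2), with adjusted p of 0.533 and 0.794. Ccnd1 passed at 0.05 in all 20 alternative fits, with a log2 fold change from -2.46 to -1.87. Ccnd2 missed the threshold without Postnatal OPC 1 or any 1 of the 4 Adult NSC libraries, with adjusted p up to 0.068. On leaving out single libraries the number of members higher was 1 without Postnatal NSC 3 and 2 without Postnatal OPC 2, and the number lower was 3 without Postnatal NSC 3. The summed level of oligodendrocyte precursor markers was 9572 to 14205 CPM in OPC and 5001 to 5333 CPM in Adult NSC, and that of immediate early genes 96.6 to 275 and 554 to 621 CPM. Their part in the members' differences was not tested. The 3 comparisons share groups, so their values are not independent of each other.

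**Figure D4:**
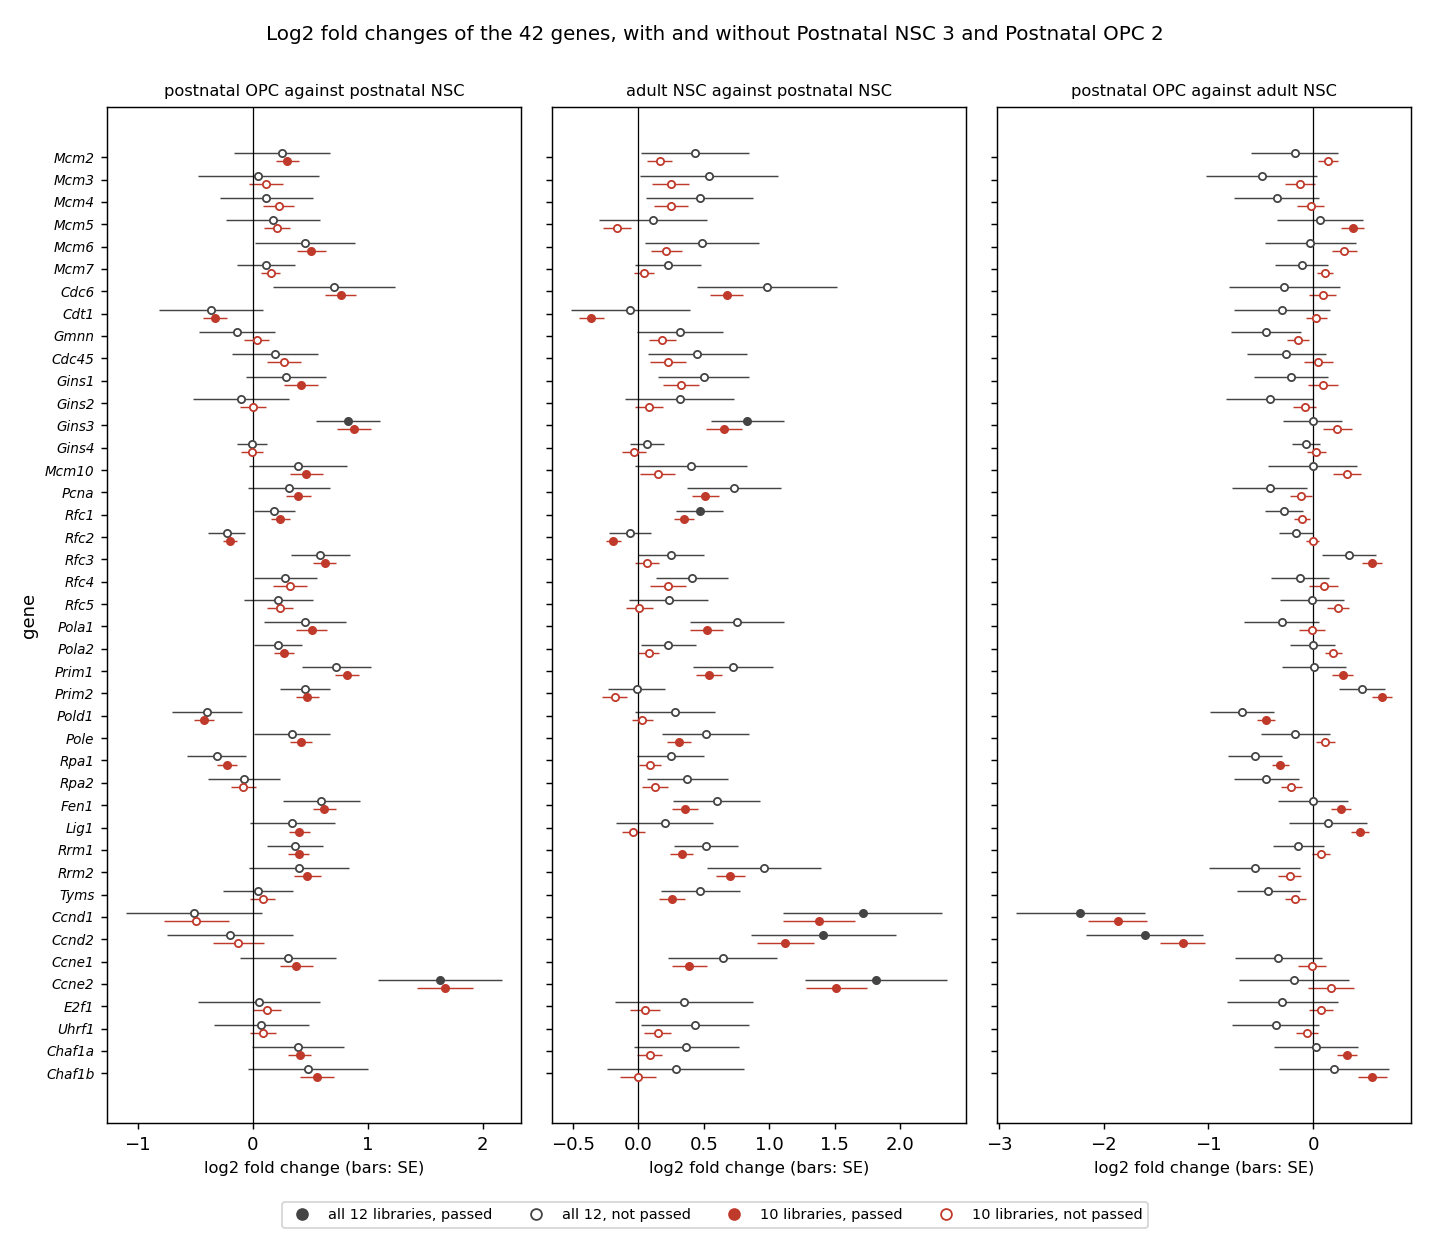
For each of the 42 genes, points give the log2 fold change and bars its SE in the 3 comparisons, from all 12 libraries (grey) and from the 10 left without Postnatal NSC 3 and Postnatal OPC 2 (red), with filled points past an adjusted p of 0.05. Bars are shorter and more points are filled with 10 libraries, and Ccne2, Ccnd1 and Ccnd2 stand farthest from 0.

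The comparisons were also fitted to the 10 libraries other than Postnatal NSC 3 and Postnatal OPC 2 (16157 genes tested). These libraries were set aside because the members are low in them, so the counts below describe the other libraries and are not stronger evidence. Between Adult and Postnatal NSC, 15 members were higher and 2 lower (background 27.8% and 30.1%), with a median of 0.20. Ccne2 gave 1.51 (SE 0.23, adjusted p = 0.000257), Ccnd1 1.38 (SE 0.27, adjusted p = 0.0013) and Ccnd2 1.12 (SE 0.22, adjusted p = 0.00109). Pcna, Rrm1, Rrm2, Tyms, Cdc6, Pola1, Prim1, Pole, Fen1, Ccne1, Gins3 and Rfc1 were the other members higher, and Cdt1 and Rfc2 were lower. None of the 6 MCM2-7 genes passed by edgeR's test. Between Postnatal OPC and Postnatal NSC, 22 were higher and 4 lower (background 26.4% and 28.0%), with a median of 0.29. Ccne2 gave 1.68 (SE 0.24, adjusted p = 0.000179), Gins3 0.89 (SE 0.15, adjusted p = 0.00044) and Prim1 0.82 (SE 0.11, adjusted p = 7.55e-05), while Pold1, Cdt1, Rpa1 and Rfc2 were lower. All 6 polymerase and primase genes passed there, 5 higher and Pold1 lower. Between Postnatal OPC and Adult NSC, 8 were higher and 4 lower (background 28.0% and 27.5%), with a median of 0.07, so that the sign of the median turned from the value of -0.20 with all 12 libraries. Prim2 (0.65, SE 0.09, adjusted p = 0.00013), Chaf1b, Rfc3, Lig1, Mcm5, Chaf1a, Prim1 and Fen1 were higher in OPC, and Ccnd1 (-1.87, SE 0.28, adjusted p = 0.000169), Ccnd2, Pold1 and Rpa1 were lower.

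Other genes of the pathway were taken from lists that share no gene with the 42. Other replication genes, such as origin recognition and replication fork components, were 8 higher and 1 lower of 30 in Adult against Postnatal NSC, 4 and 1 in OPC against Postnatal NSC, and 0 and 2 in OPC against Adult NSC. The largest rise was in Orc4, a subunit of the origin recognition complex, at 0.98 (SE 0.11, adjusted p = 3.67e-05) in Adult and 0.91 (SE 0.11, adjusted p = 5.06e-05) in OPC against Postnatal NSC. Orc4 read 23, 20.6, 28.5 and 28.6 CPM in Postnatal NSC 1 to 4, 49.3, 50.8, 51.8 and 46.4 CPM in Adult NSC 1 to 4, and 48.3, 49.98, 44.5 and 46.4 CPM in Postnatal OPC 1 to 4, and so was not low in Postnatal OPC 2. Other deoxynucleotide genes were 3 higher and 0 lower of 7 in Adult against Postnatal NSC, 1 and 0 in OPC against Postnatal NSC, and 0 and 1 in OPC against Adult NSC. Other G1/S regulators were 8 higher and 1 lower of 21 in Adult against Postnatal NSC, 6 and 2 in OPC against Postnatal NSC, and 3 and 4 in OPC against Adult NSC. Mycn, a MYC family factor that drives progenitor proliferation, differed most among them: it rose in Adult NSC (1.18, SE 0.27, adjusted p = 0.00322) and fell in OPC against Adult NSC (-2.06, SE 0.28, adjusted p = 8.82e-05). Cdk4, the kinase partner of the D-type cyclins, stayed between 509.6 and 619 CPM in all 12 libraries and was -0.19 in Adult against Postnatal NSC (adjusted p = 0.0225).

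CDK inhibitors, which oppose the cyclins, were 2 higher and 1 lower of 7 in Adult against Postnatal NSC, 1 and 2 in OPC against Postnatal NSC, and 1 and 3 in OPC against Adult NSC. Cdkn1a, which encodes p21, rose with the D-type cyclins in Adult against Postnatal NSC (1.11, SE 0.32, adjusted p = 0.0109) and fell in OPC against Adult NSC (-3.12, SE 0.34, adjusted p = 1.43e-05). It read 193, 142, 71.5 and 272 CPM in Postnatal NSC 1 to 4, 383, 354, 337 and 391 CPM in Adult NSC 1 to 4, and 38.5, 29, 56.7 and 45 CPM in Postnatal OPC 1 to 4. Postnatal NSC 3 and Postnatal OPC 2 were the lowest of their groups for this inhibitor too. Cdkn1c, which encodes p57, went the other way, at -2.77 (SE 0.33, adjusted p = 5.43e-05) in Adult against Postnatal NSC. S-phase chromatin and repair genes were 5 higher and 0 lower of 15 in Adult against Postnatal NSC, 0 and 0 in OPC against Postnatal NSC, and 0 and 0 in OPC against Adult NSC, led by Hells, a chromatin remodeller, at 1.43 (SE 0.47, adjusted p = 0.0219) in Adult NSC. Mitosis genes were 5 higher and 0 lower of 23 in Adult against Postnatal NSC, 3 and 0 in OPC against Postnatal NSC, and 0 and 1 in OPC against Adult NSC, with Kif11, a spindle motor, at 1.01 (SE 0.23, adjusted p = 0.00348) in Adult NSC. These shares stand against the background of all genes given for each comparison.

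Levels of different genes were compared per kilobase of exon (RPKM, using the union of annotated exons). In Adult NSC, where the members' median SD was smallest, Ccnd1 was highest at 476 ± 6.41 RPKM (mean ± SD, n = 4), followed by Ccnd2 at 146 ± 2.04, Pcna at 134 ± 6.46 and Rrm2 at 119 ± 7.93 RPKM. Cyclin E genes were far lower, with Ccne1 at 13 ± 0.742 and Ccne2 at 10.9 ± 1.38 RPKM, and Gins3 was the lowest member at 4.93 ± 0.491 RPKM. The MCM2-7 genes, whose products form a ring with 1 copy of each, lay between 29.1 ± 2.05 (Mcm2) and 54.9 ± 4.08 RPKM (Mcm4). The exon union of Mcm2 (6956 bases) is longer than that of Mcm4 (3589 bases), and rare exons in the union lower an RPKM. In Postnatal OPC the order at the top changed, with Ccnd1 at 102 ± 58.5, Pcna at 100.4 ± 46.6, Rrm2 at 80.8 ± 41.5 RPKM, and Ccnd2 at 47.7 ± 29.9 level with Mcm7 at 47.9 ± 15.9 RPKM. These SDs include the low library, so the genes were also compared within each library. Ccnd2 (44, 7.46, 75.8 and 63.6 RPKM in Postnatal OPC 1 to 4) was below Ccnd1 (106, 17.8, 142 and 142), Pcna (111, 32.6, 120.1 and 138) and Rrm2 (90.9, 19.6, 104 and 109) in all 4. Ccnd1 was above Pcna in Postnatal OPC 3 and 4 and below it in Postnatal OPC 1 and 2. In Postnatal NSC, Ccnd1 was at 145 ± 101 RPKM and Ccne2 at 3.12 ± 1.9, the latter close to Gins3 at 2.77 ± 0.849 RPKM.

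**Figure D5:**
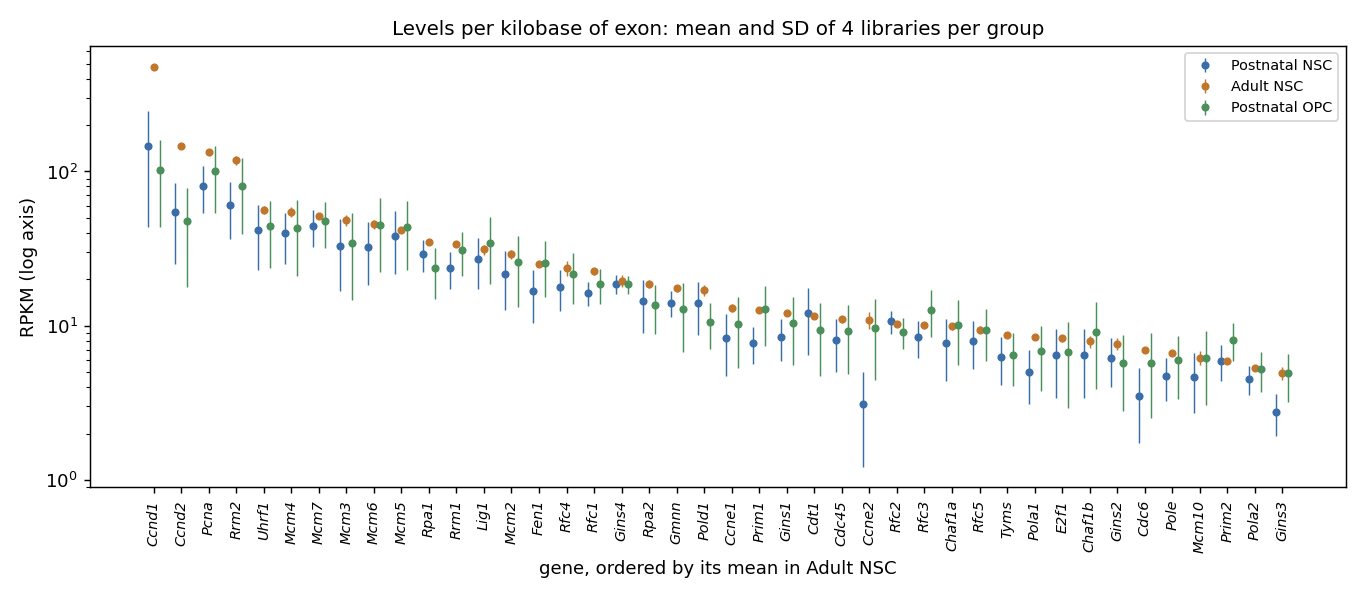
Points are mean RPKM per group on a log axis with bars for the SD of 4 libraries, and genes are ordered by their level in Adult NSC. Ccnd1 and Ccnd2 head the order with Adult NSC well above both postnatal groups, and the bars of Adult NSC are shorter than those of the postnatal groups.

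The promoters of the members were searched for the binding sequence of E2F factors. RefSeq windows on GRCm38.p6, from 250 bases before to 50 bases after the start site, were found for 31 of the 42 members. Where a gene had several, the window nearest its annotated start was used for the members and other listed genes. For all other genes the first window given was used, so the shares compared below rest on windows chosen differently. An E2F sequence was counted where any of TTTCCCGC, TTTCGCGC, TTTGCCGC or TTTGGCGC stood on either strand, with overlapping matches allowed. It was present in 10 of the 31 windows (32.3%), against 2.32% of the 27025 genes with a window and 4.15% of the 10831 of these genes that were tested for expression. The 10 were Mcm3, Mcm5, Mcm6, Mcm7, Cdc6, Cdt1, Gins3, Rfc3, Pola1 and Pold1. The CCAAT box (CCAAT, either strand) was in 61.3% of the members' windows and 39.0% of those of tested genes, and the CHR element of G2/M genes (TTTGAA, either strand) in 12.9% and 11.5%. The 200 bases before the start site are shown for 3 members whose matches lie upstream, a pair of helicase subunits and the catalytic subunit of polymerase alpha, with the matches in capitals. They lie at chr8:75109309-75109508 on the plus strand (Mcm5), chr1:128359706-128359905 on the minus strand (Mcm6) and chrX:93632156-93632355 on the minus strand (Pola1), and each is written 5′ to 3′ along the gene's own strand.
Mcm5: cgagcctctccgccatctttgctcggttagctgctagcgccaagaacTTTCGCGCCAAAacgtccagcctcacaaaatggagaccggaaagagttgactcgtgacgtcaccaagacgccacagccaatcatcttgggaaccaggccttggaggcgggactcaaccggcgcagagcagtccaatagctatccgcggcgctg
Mcm6: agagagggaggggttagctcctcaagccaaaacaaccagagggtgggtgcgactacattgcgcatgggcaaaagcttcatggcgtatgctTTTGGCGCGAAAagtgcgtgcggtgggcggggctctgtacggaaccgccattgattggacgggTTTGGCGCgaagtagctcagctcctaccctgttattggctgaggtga
Pola1: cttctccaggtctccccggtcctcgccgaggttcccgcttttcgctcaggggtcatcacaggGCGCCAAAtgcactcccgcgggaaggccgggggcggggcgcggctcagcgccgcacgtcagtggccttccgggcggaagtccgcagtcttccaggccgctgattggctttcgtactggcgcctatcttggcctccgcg
In Mcm5 the capitals are a pair of overlapping matches, in Mcm6 another overlapping pair and a separate match nearer the start site, and in Pola1 a single match on the opposite strand. The 3 genes stood 2.99-fold, 2.91-fold and 2.29-fold below the other libraries in Postnatal NSC 3, and 4.06-fold, 4.78-fold and 3.41-fold below in Postnatal OPC 2. Members with and without a match had medians of 2.76-fold (10 members) and 2.40-fold (21 members) below in Postnatal NSC 3, and 3.72-fold and 3.74-fold in Postnatal OPC 2. A match describes letters in this window and is not a measured binding site.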

How the data were processed

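Stranded poly(A) RNA-seq libraries of 12 cultures were analysed from the deposited table of read counts per gene, with 1 column per library and all 12 columns used. Per the submitters' processing notes, FastQC, STAR, featureCounts 1.22.2 and GRCm38 were used; the counting of strand and of reads with several matches is not given in the sources used here. Identifiers were matched to GENCODE release M21 (55141 of 55401, all members included). Unmatched identifiers held at most 0.0130% of a library's counts. The members and lists were chosen with earlier results of these data known.

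Counts were filtered with filterByExpr by group (minimum count 10, minimum total 15), scaled by TMM and fitted with edgeR 4.0.16 (R 4.3.3, limma 3.58.1), 1 term per group over 12 libraries (biological coefficient of variation 22.6%), and tested with two-sided quasi-likelihood tests, with Benjamini-Hochberg adjustment over 16135 genes. The SE is the log2 fold change divided by the square root of F. CPM use TMM-scaled library sizes, and log2 CPM a prior count of 2. Tests on simulated data, with 200 genes changed, preceded the fits. Groups and numbers come from the labels. The p-values rest on the spread among cultures of 4 litters, pooled per gene over all groups. The members' spread was unequal between groups, so the pooled value is not that of the groups compared. No pair of libraries in a group agreed within sampling noise (chi-square per degree of freedom at least 3.98). The replicate number is no block in the fit. The text names each member by role, gives every library for the 4 called members with the largest rise or fall in a comparison and for Mcm2, Pcna, Ccnd1, Ccnd2, Ccne1, Ccne2 and E2f1, and up to 3 called genes per direction of other lists. Alternatives were RLE and upper quartile scaling, DESeq2 1.42.0, no filter, a replicate block, only the groups compared, thinning to equal depth, a threshold of 0.01, each library left out, and Postnatal NSC 3 with Postnatal OPC 2 left out. Coordinates are GRCm38; promoter windows are from RefSeq. Figures were drawn with Python 3.11.15 and matplotlib 3.10.9.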

Additional observations from a re-analysis of the deposited data

Results flagged for a closer look

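In each group of 4 libraries the gap between the most distant library and its nearest neighbour was divided by the range of the group, and ratios above Dixon's critical value for 4 samples are given here. Chance gives this in about 1 in 20 groups; 126 gene and group combinations and 30 list and group combinations were examined, and members that move together are not independent. Postnatal OPC 2 lay below the other OPC libraries for 33 members. The ratio was 0.83 for Prim1, 0.84 for Gmnn, Gins4 and Pole, 0.85 for Mcm7 and Pcna, 0.86 for Mcm4, Cdc45, Gins1, Rfc2, Rpa2 and Ccnd1, 0.88 for Rpa1, 0.89 for Rrm2, 0.90 for Mcm5, Mcm6 and Tyms, 0.91 for Mcm3, Gins2 and Chaf1a, 0.92 for Lig1, Uhrf1 and Chaf1b, 0.93 for Mcm2 and Mcm10, 0.94 for Cdc6, Pold1, Fen1 and Ccne2, 0.95 for Cdt1, Gins3 and E2f1 and 0.98 for Ccne1. For mean log2 CPM over lists it was 0.89 for all 42 members, 0.90 for MCM2-7 helicase, 0.94 for origin licensing, 0.90 for helicase activation, 0.86 for polymerases and primase, 0.90 for single-strand binding and Okazaki fragments, 0.87 for deoxynucleotide synthesis, 0.91 for G1/S cyclins and E2F1 and 0.92 for chromatin replication, again low in Postnatal OPC 2. Adult NSC 3 lay above the other Adult NSC libraries for Mcm4 (0.95), Mcm10 (0.83), Rpa1 (0.89) and Rrm1 (0.95), and in the mean of all 42 members (0.86), MCM2-7 helicase (0.88) and deoxynucleotide synthesis (0.83). Postnatal NSC 3 lay below the others for Pold1 (0.84), the only member with such a gap in that group, although all 42 members were lowest in that library.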

How the results depend on the processing

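Each of the 126 member fold changes was recomputed in 20 alternative fits at the threshold of 0.05. None reversed among called values, and of 2520 recomputed values 50 lost the threshold and 79 gained it. Members higher in OPC against Postnatal NSC (2) numbered 4 with DESeq2, 0 with only the groups compared, 0 at an adjusted p under 0.01, 22 without Postnatal NSC 3 and Postnatal OPC 2, and 0 to 13 when each library was left out; members lower (0) numbered 4 without both and 0 to 1 on leaving out each library. Members higher in Adult against Postnatal NSC (5) numbered 3 with upper quartile scaling, 11 with only the groups compared, 0 at an adjusted p under 0.01, 15 without both libraries, and 1 to 11 on leaving out each; members lower (0) numbered 2 without both. In OPC against Adult NSC, members higher (0) numbered 8 without both and 0 to 2 on leaving out each, and members lower (2) numbered 4 without both, 1 at an adjusted p under 0.01, and 1 to 3 on leaving out each.

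With the replicate block, 1 member in place of 2 was higher in OPC against Postnatal NSC (Gins3 had an adjusted p of 0.0506) and 4 in place of 5 in Adult against Postnatal NSC; the other counts did not change. Same-numbered libraries did not deviate together in every pair of any comparison (correlations from -0.36 to 0.32), and no litter is named for a number. Such correlations cannot exclude a shared litter, so whether the numbers pair the libraries is not known. The cause of these changes was not tested. Counts of the members were at least 79 in a library. In simulated data (16135 genes), 14.0% of 1.5-fold and 71.4% of 2-fold changes were recovered for Adult against Postnatal NSC. The shares were 13.0% and 71.2% for OPC against Postnatal NSC, and 7.35% and 61.0% for OPC against Adult NSC. They cover all genes and are not the shares for the members, whose spread was larger in the postnatal groups. The median SD of log2 CPM was 0.64 for members and 0.28 for all genes in Postnatal NSC. In Postnatal OPC it was 0.97 and 0.25.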

Other observations

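Several regulators of the G1/S step outside the 42 genes differed between groups by edgeR's quasi-likelihood test with Benjamini-Hochberg adjustment. Rb1, which encodes the retinoblastoma protein, rose in Postnatal OPC against Adult NSC (0.75, SE 0.09, adjusted p = 2.94e-05). Cdk6, a kinase partner of D-type cyclins, rose in OPC against Postnatal NSC (0.72, SE 0.24, adjusted p = 0.026). Skp2, the ubiquitin ligase subunit that removes p27, rose in both Adult NSC (0.86, SE 0.24, adjusted p = 0.00986) and OPC (0.67, SE 0.24, adjusted p = 0.0365) against Postnatal NSC, and so did E2f3, an activating E2F (0.75, SE 0.19, adjusted p = 0.00625 in Adult NSC and 0.64, SE 0.19, adjusted p = 0.0161 in OPC). Cdkn2b, which encodes the CDK4 and CDK6 inhibitor p15, fell in OPC against Adult NSC (-1.70, SE 0.23, adjusted p = 6.55e-05).

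Mki67, a marker of cells in any phase of the cycle, read 401, 383, 286 and 438 CPM in Postnatal NSC 1 to 4, 624, 621, 548 and 606 CPM in Adult NSC 1 to 4, and 508, 248, 551 and 522 CPM in Postnatal OPC 1 to 4. Postnatal NSC 3 and Postnatal OPC 2 were the lowest of their groups, as for the 42 members. Mki67 rose in Adult against Postnatal NSC (0.67, SE 0.21, adjusted p = 0.0182). All 10 immediate early genes fell in both Adult NSC and Postnatal OPC against Postnatal NSC in the fit of 10 libraries, with median log2 fold changes of -3.61 and -4.02 (all genes -0.03 and -0.01).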
